A study of Mus musculus with 6 samples.

Results

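The mouse genes for lipid droplet proteins and patatin-type lipases were followed in regenerating livers with and without the cytokine signalling inhibitor Socs3 in hepatocytes. The group holds 10 genes named by their function at or near the lipid droplet: the patatin lipases Pnpla2, Pnpla3 and Pnpla7, the droplet coat proteins Plin2 and Plin5, the droplet fusion proteins Cidec and Cideb, the droplet-associated short-chain dehydrogenases Hsd17b13 and Hsd17b11, and the lipase inhibitor G0s2. They are 10 of the 18193 genes that a probe set of the array names alone, and 9 of them were among the 8554 genes bright enough to test. The genes were listed with the difference between the groups already known, so the members are in effect selected on this contrast, the Cre plus minus Cre minus difference of these arrays, in which Hsd17b13 and Pnpla7 were already among the leading lower genes. Their differences are described here without a test.

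The Cre plus group (n = 3 arrays, A, B and C) held livers of C57BL/6 mice with Socs3 fl/fl and the Alb-Cre transgene, in which the albumin promoter drives Cre and Socs3 is excised in hepatocytes. The Cre minus group (n = 3 arrays, A, B and C) held livers of Socs3 fl/fl littermates without Cre. Both groups carry the floxed allele, and both were sampled as whole liver 18 hours after partial hepatectomy, an operation that takes out most of the organ. There is no array from before surgery and no group with Cre but without floxed Socs3, so neither a difference present before surgery nor an effect of Cre itself can be told apart from the effect of losing Socs3. The labels give no age and do not say whether each array is a separate mouse, so any p-value here reflects only how these samples vary, and that variation may be technical.

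A lipid droplet is a store of triglyceride and steryl ester under a single layer of phospholipid, covered with proteins that decide how fast the fat is built up and broken down. The regenerating liver is known to fill transiently with such droplets in the first days after hepatectomy, around the time hepatocytes begin to divide. Pnpla2, also called ATGL, takes the first fatty acid off triglyceride. Abhd5 activates it, G0s2 inhibits it, and the perilipins control its access to the droplet.

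The arrays had median log2 values of 2.98 to 3.02, a likeness that follows from the GCRMA scaling to one distribution. Cre plus B stood apart: it correlated at 0.991 to 0.993 with the Cre minus arrays and at 0.987 to 0.989 with the other Cre plus arrays. Differences that moved by over 1.5 times or turned sign when it was left out are given with and without it. Socs3 had log2 values of 7.44, 6.69 and 7.47 over Cre plus A to C, against 9.09, 9.30 and 9.24 over Cre minus A to C, a log2 difference of -2.01 ± 0.22 (limma's SE). Its p adjusted over all genes was 0.0732 by limma. These values are from the brightest Socs3 probe set. A dimmer probe set of Socs3 differed by -1.60 ± 0.21. Another, too dim to be kept, differed by -0.75 ± 0.21. In each, all Cre plus arrays lay below all Cre minus arrays. Both kept Socs3 probe sets are of the _x_at kind, so Socs3 had no reading when that kind was left out. All values here are log2 GCRMA signals, on which a step of 1 is a doubling, and they compare arrays for the same probe set, not one gene with another.

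The genes fell into 2 patterns. G0s2, Hsd17b13, Hsd17b11, Pnpla7 and Cideb, 5 of the 9 measured genes, lay below all 3 Cre minus arrays in all 3 Cre plus arrays. For Pnpla2, Plin2, Plin5 and Cidec the groups overlapped, and their lowest value was in Cre plus B. No gene of the group was higher in every Cre plus array. In limma, 2 of the 8554 genes (0.0234%) were higher and 0 (0%) lower at an adjusted p under 0.05, and none of the 9 was among the 2. Over all 8554 genes, 11.9% were lower and 9.21% higher in Cre plus with groups that do not overlap. Because the difference was known when the genes were listed, nothing is read from their count against that share. The median log2 difference of the 9 genes was -0.48, beside -0.01 over all genes tested. For the same reason, nothing is read from this median against that of all genes. Against the Cre minus mean, the median shift was -0.38 for Cre plus A, -0.58 for Cre plus B and -0.40 for Cre plus C.

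**Figure D1:**
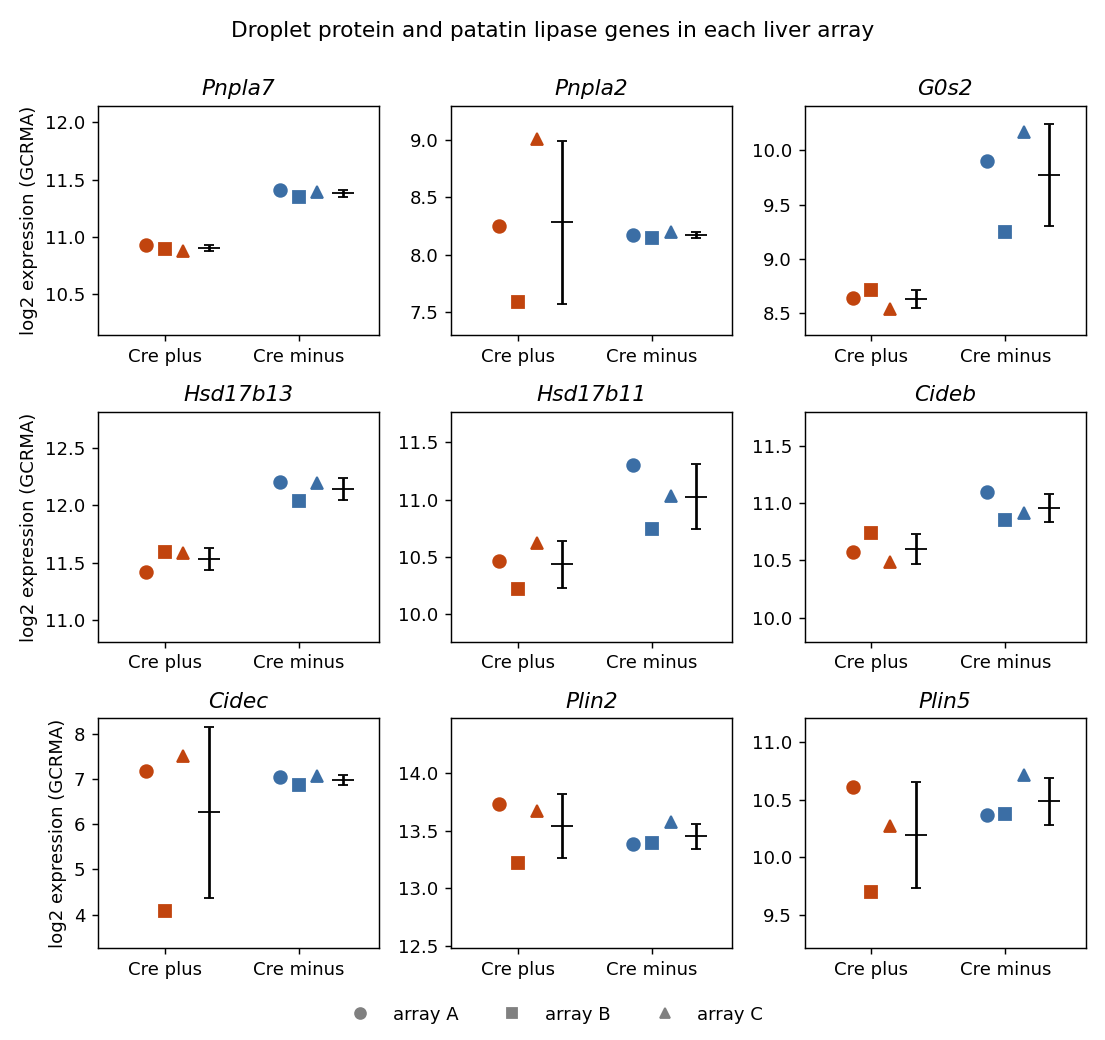
Log2 GCRMA expression (y axis, a separate range for each gene) of the 9 measured genes in the Cre plus arrays (left, orange) and the Cre minus arrays (right, blue). Symbols are single arrays, and the black bar is the mean ± SD of 3 arrays. Pnpla7, G0s2, Hsd17b13, Hsd17b11 and Cideb lie apart in the groups, and Cre plus B (square) is the lowest point for Pnpla2, Cidec, Plin2, Plin5 and Hsd17b11.

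The short-chain dehydrogenases come first because the genome places them together. Hsd17b13 encodes a liver-enriched droplet protein, and Hsd17b11 encodes its close relative on the droplet surface. In the RefSeq gene table of GRCm38.p6 they are neighbours on chromosome 5, with no annotated gene between them. Their promoters are shown, from 250 bases before to 50 bases after the annotated start and credited to RefSeq on GRCm38.p6, to let the neighbours be compared. Promoters of Pnpla7, the gene with the least spread within the groups, and of Plin2, whose groups overlapped, follow for contrast. Sequences run 5′ to 3′ on the gene's strand, and capitals mark the E-box CACGTG and the nuclear receptor core motif AGGTCA on either strand (TGACCT on the other).
Hsd17b13, chr5:103977339-103977638, minus strand: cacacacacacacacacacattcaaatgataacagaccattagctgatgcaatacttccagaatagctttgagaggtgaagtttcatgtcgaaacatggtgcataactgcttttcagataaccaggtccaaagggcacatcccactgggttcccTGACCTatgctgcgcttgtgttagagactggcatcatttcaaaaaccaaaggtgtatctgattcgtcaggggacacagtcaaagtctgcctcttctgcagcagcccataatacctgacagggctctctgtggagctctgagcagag
Hsd17b11, chr5:104021747-104022046, minus strand: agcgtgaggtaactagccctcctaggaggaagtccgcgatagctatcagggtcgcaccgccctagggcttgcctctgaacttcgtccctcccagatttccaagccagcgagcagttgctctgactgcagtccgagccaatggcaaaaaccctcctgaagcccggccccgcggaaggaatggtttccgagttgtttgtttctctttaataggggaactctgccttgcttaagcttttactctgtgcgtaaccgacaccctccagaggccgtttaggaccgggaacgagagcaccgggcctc
Pnpla7, chr2:24975783-24976082, plus strand: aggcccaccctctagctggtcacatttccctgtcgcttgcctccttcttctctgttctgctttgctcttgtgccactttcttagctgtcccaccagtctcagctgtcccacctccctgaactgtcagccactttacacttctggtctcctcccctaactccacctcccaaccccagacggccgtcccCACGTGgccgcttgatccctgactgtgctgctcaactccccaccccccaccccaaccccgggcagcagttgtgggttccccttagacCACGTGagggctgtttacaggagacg
Plin2, chr4:86670010-86670309, minus strand: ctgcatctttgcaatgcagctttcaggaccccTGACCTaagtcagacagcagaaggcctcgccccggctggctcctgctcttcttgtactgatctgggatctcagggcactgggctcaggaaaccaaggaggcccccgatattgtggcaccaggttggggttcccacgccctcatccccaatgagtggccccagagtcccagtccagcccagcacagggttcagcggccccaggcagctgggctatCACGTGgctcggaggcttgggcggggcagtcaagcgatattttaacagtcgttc

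All 10 genes had an entry in the promoter table, with 12 promoters in all. The E-box CACGTG, a palindrome, was in 2 of them: at 2 places in the Pnpla7 promoter and at 1 place in the Plin2 promoter. Among all 32851 promoters of that length, 7.15% hold it. The core motif AGGTCA was in 4 of the 12, those of Plin2 and Hsd17b13 and both of Plin5, against 16.3% of all promoters. The full PPAR response element AGGTCANAGGTCA, which contains that core at each end, was in 0 of the 12 and in 0.0396% of all promoters. The STAT site TTCNNNGAA was in 0 of the 12 and in 8.30% of all, the C/EBP site TTGCNNCAA in 0 and 2.08%, the HNF4 site CAAAGTCCA in 0 and 0.475%, and the TATA box TATAAA in 1, that of Cideb, and 13.6%. Both strands were searched, and these counts describe letters in these windows only.

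Hsd17b13 had log2 values of 11.42, 11.60 and 11.58 over Cre plus A to C, against 12.20, 12.03 and 12.20 over Cre minus A to C. The highest Cre plus value lay 0.44 below the lowest Cre minus value. The log2 difference was -0.61 ± 0.08 (SE), which leaves 65.4% of the Cre minus signal. Its other probe set stayed at the bottom of the scale, at 2.09 to 2.10 in all 6 arrays.

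Hsd17b11 was read by 2 probe sets above the filter, and both gave the same picture. The brighter had 10.46, 10.22 and 10.63 over Cre plus A to C, against 11.30, 10.74 and 11.03 over Cre minus A to C, a log2 difference of -0.59 ± 0.17. The dimmer had 7.25, 7.04 and 7.36 in Cre plus arrays and 7.92, 7.66 and 7.79 in Cre minus arrays, a difference of -0.58 ± 0.11. On the brighter the groups came within 0.12 of each other, and on the dimmer within 0.31. The remaining probe set of the gene lay at 2.71 to 2.75 in all arrays. Of the nearest protein-coding genes on either side, Klhl8 did not pass the filter on dim probe sets, and Nudt9, which encodes an ADP-ribose hydrolase, had a log2 difference of -0.24 ± 0.12 with limma's adjusted p = 0.406.

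Other enzymes of the HSD17B and HSD11B families, which reside outside the droplet, were looked at beside them. Of 10 listed, 7 were measured, with 6 lower and 1 higher in value in Cre plus, a median log2 difference of -0.17 and 0 past an adjusted p under 0.05 in limma. Before adjustment, at a limma p under 0.05, there were 2 lower genes, where 8.21% of all genes were lower and 6.62% higher by that rule. Hsd17b10, a mitochondrial dehydrogenase, averaged 10.22 ± 0.09 in Cre plus and 10.79 ± 0.22 in Cre minus arrays (SD, n = 3 each), with limma's adjusted p = 0.164. Hsd11b1, which regenerates active glucocorticoid, had a difference of -0.29 ± 0.12 and Hsd17b4, a peroxisomal enzyme of fatty acid oxidation, one of -0.16 ± 0.07, with adjusted p-values of 0.332 and 0.346 by limma.

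Among the patatin lipases, Pnpla7 and Pnpla2 differed in how they varied. Pnpla7 encodes a lysophospholipase that acts on lysophosphatidylcholine. Its values were 10.93, 10.89 and 10.88 over Cre plus A to C, against 11.41, 11.35 and 11.39 over Cre minus A to C. Both groups were tight, spanning 0.05 and 0.06, and a gap of 0.42 lay between them. The log2 difference was -0.48 ± 0.05, a Cre plus signal of 71.7% of the Cre minus signal, and it lay between -0.50 and -0.47 whichever array was left out.

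Pnpla2, the first lipase of triglyceride breakdown, had 8.24, 7.59 and 9.00 over Cre plus A to C, against 8.17, 8.15 and 8.20 over Cre minus A to C. The Cre minus arrays were within 0.05 of each other, while the Cre plus arrays spanned 1.41, with B below and C above every control. The SD was 0.71 in Cre plus and 0.03 in Cre minus. The log2 difference was 0.11 ± 0.34 with all arrays, 0.45 once Cre plus B was left out and -0.26 once Cre plus C was, so its sign rests on single arrays. A further Pnpla2 probe set lay at 2.52 to 2.56 throughout.

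Pnpla3, the lipase relative known as adiponutrin, had a single probe set, at 2.40 to 2.41 in all 6 arrays. It did not pass the filter in either group, and no difference could be measured at that signal.

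With all 6 arrays G0s2 had the largest difference of the 9 genes. Without Cre plus A or without Cre plus C the difference of Cidec was larger, at -1.18 and -1.35, beside -1.15 and -1.10 for G0s2. The values of G0s2 were 8.64, 8.71 and 8.54 over Cre plus A to C, against 9.90, 9.25 and 10.17 over Cre minus A to C. The Cre plus arrays lay within 0.17 of each other, and the nearest control was 0.54 above them. The log2 difference was -1.14 ± 0.23, a 2.21-fold lower signal in Cre plus, and over the arrays left out in turn it was between -1.40 and -0.94. Here the spread was in the controls, with an SD of 0.09 in Cre plus and 0.47 in Cre minus.

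Abhd5, the activator of Pnpla2, named after its values were seen, had 7.41, 7.49 and 7.39 in Cre plus arrays and 7.37, 7.42 and 7.41 in Cre minus arrays, a log2 difference of 0.03 ± 0.06 with limma's adjusted p = 0.812 (0.0052 without Cre plus B). Hilpda, another droplet protein that inhibits Pnpla2, had 6.06, 5.10 and 5.99 over Cre plus A to C, against 4.87, 5.12 and 5.11 over Cre minus A to C. It was about as high in Cre plus B as in the controls and higher in the other Cre plus arrays, with a difference of 0.69 ± 0.27 and an adjusted p = 0.319 by limma. Without Cre plus B the difference of Hilpda was 0.99.

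Lipases and esterases outside the group were mostly lower in value. Of 25 listed, 18 were measured, with 14 lower and 4 higher in Cre plus, a median log2 difference of -0.14 (-0.09 without Cre plus B), 0 past limma's adjusted threshold and 3 lower at an unadjusted p under 0.05. Those 3 were Lipa, the acid lipase of lysosomes, at -0.51 ± 0.13, Mgll, which releases the last fatty acid from monoacylglycerol, at -0.67 ± 0.17, and the carboxylesterase Ces2e at -0.21 ± 0.08. Their limma adjusted p-values were 0.191, 0.193 and 0.292. Over all genes, 8.21% were lower at a limma p under 0.05 before adjustment.

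The CIDE proteins pass lipid between touching droplets, Cidec in fat cells and in fatty liver, Cideb in hepatocytes, where it also helps to load lipid onto very low density lipoprotein. Cideb had 10.57, 10.74 and 10.49 over Cre plus A to C, against 11.09, 10.85 and 10.92 over Cre minus A to C. The groups were 0.12 apart, and the log2 difference was -0.36 ± 0.10, or 78.1% of the Cre minus signal. Its probe set is of the _s_at kind, which can bind more than one transcript, and in the RefSeq table Cideb overlaps Nop9 and Ltb4r2, so the reading is uncertain.

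Cidec had the widest range of the group, with 7.19, 4.09 and 7.51 over Cre plus A to C, against 7.04, 6.86 and 7.06 over Cre minus A to C. Cre plus B lay at -2.90 from the Cre minus mean and close to the filter of 4, while Cre plus A and C lay 0.20 and 0.53 above that mean. The log2 difference was -0.72 ± 0.90 with all arrays and 0.37 without Cre plus B, so its sign turned with that array. Set against the mean of Cre plus A and C, Cidec in Cre plus B ranked as number 6 from the bottom of all 8554 genes, at -3.26.

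The perilipins showed the same array apart. Plin2, the main droplet coat protein of hepatocytes, had 13.74, 13.22 and 13.67 over Cre plus A to C, against 13.39, 13.39 and 13.58 over Cre minus A to C. Cre plus A and C lay above all controls and Cre plus B below them. The log2 difference was 0.09 ± 0.15, which became 0.25 when Cre plus B was left out and -0.0042 when Cre plus A was.

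Plin5, which couples droplets to mitochondria in oxidative tissues, was read by 2 probe sets. The brighter had 10.61, 9.70 and 10.27 over Cre plus A to C, against 10.36, 10.37 and 10.72 over Cre minus A to C, a log2 difference of -0.29 ± 0.24. The dimmer had 9.52, 8.66 and 9.24 in Cre plus arrays and 9.31, 9.25 and 9.50 in Cre minus arrays, a difference of -0.21 ± 0.22. Both put Cre plus B lowest, and without that array the brighter one differed by -0.05.

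**Figure D2:**
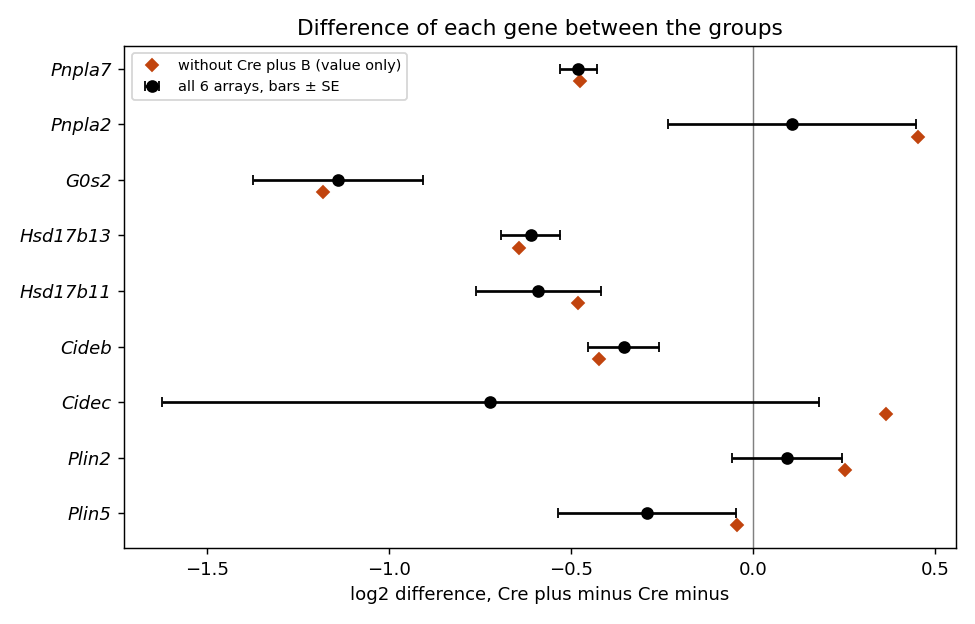
Log2 difference, Cre plus minus Cre minus (x axis), for each measured gene (y axis). Black points use all 6 arrays with bars of ± 1 limma SE, and orange diamonds leave out Cre plus B. G0s2, Hsd17b13, Hsd17b11, Pnpla7 and Cideb stay below 0 either way, whereas Cidec goes to 0.37 and Plin5 to -0.05 without that array.

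Cre plus B was the lowest of all 6 arrays for 5 of the 9 genes, Pnpla2, Plin2, Plin5, Cidec and Hsd17b11, beside 13.9% of all genes tested. Among the Cre plus arrays alone it was the lowest for 29.4% of all genes. The group difference was known when the genes were listed, so nothing is read from their count against either share. Without Cre plus B, Pnpla2, Plin2 and Cidec stood above all Cre minus arrays in both other Cre plus arrays, and the 5 genes named above as lower were still apart. Pnpla2 was only narrowly above in Cre plus A, at 8.24 against 8.20 in Cre minus C. Without Cre plus A, Plin5 joined those lower genes. The share of all genes apart with an array left out was not computed. Groups separate more easily with fewer arrays, so nothing is read from these counts. The median difference of the 9 genes was -0.43 without Cre plus B, beside -0.02 for all genes.

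The list of other droplet proteins gave mixed directions. Of 16 listed, 12 were measured, with 4 higher and 8 lower in value, a median log2 difference of -0.05 (-0.11 without Cre plus B), 0 past limma's adjusted threshold, and at limma p under 0.05 before adjustment 2 higher and 1 lower. By that rule 6.62% of all genes were higher and 8.21% lower. Plin3, a perilipin found in most cells, differed by 0.30 ± 0.12, and seipin (Bscl2), which shapes new droplets at the endoplasmic reticulum, by -0.35 ± 0.06, with limma adjusted p-values of 0.315 and 0.120. Plin4, named after its values were seen, had 7.88, 6.29 and 7.89 over Cre plus A to C, against 6.93, 6.76 and 6.92 over Cre minus A to C. Its log2 difference was 0.49 ± 0.44 with limma's adjusted p = 0.641, and without Cre plus B it was 1.02 with an adjusted p = 0.0392, a call that rests on leaving out that array.

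Genes under PPARa, the fatty acid receptor that is known to drive several droplet genes in liver, were lower in value in all 3 Cre plus arrays by their median, at -0.18, -0.35 and -0.29 from the Cre minus mean for Cre plus A, B and C. Of 21 listed, 18 were measured, with 15 lower and 3 higher in value and a median log2 difference of -0.27. By limma 0 passed the adjusted threshold, and at an unadjusted p under 0.05 there were 8 lower and 0 higher. Over all genes, 8.21% were lower and 6.62% higher by that rule. The list was chosen with earlier results of these data known, so nothing is read from its count. The examples with the smallest p were the acyl-CoA dehydrogenase Acadm at -0.46 ± 0.07, the pantetheinase Vnn1 at -0.90 ± 0.19 and the fatty acid hydroxylase Cyp4a14 at -1.32 ± 0.34, with limma adjusted p-values of 0.0995, 0.162 and 0.200. In all 3 the groups did not overlap, as was so on the lower side for 11.9% of all genes.

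Pdk4, a kinase that holds back glucose oxidation and is named after its values were seen, also split the Cre plus arrays. It had 10.73, 6.96 and 10.72 over Cre plus A to C, against 7.27, 7.52 and 8.58 over Cre minus A to C. Cre plus A and C were above every control and Cre plus B was below them all. Its log2 difference was 1.68 ± 1.09, with limma's adjusted p = 0.517, and without Cre plus B it was 2.94.

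**Figure D3:**
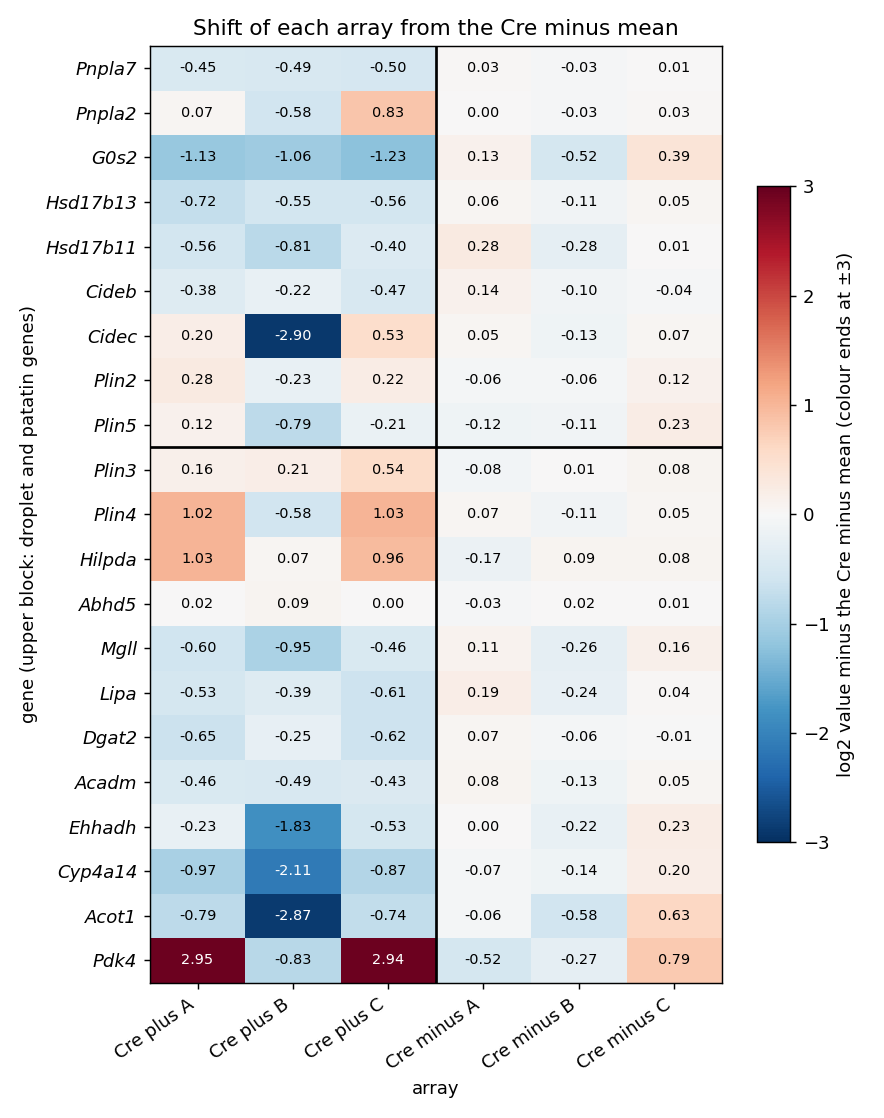
Log2 value of each array minus the Cre minus mean of that gene (colour and printed number) for the 9 measured genes (upper block) and 12 other lipid genes chosen after their values were seen (lower block). Columns are the arrays, Cre plus left of Cre minus. G0s2 is low in all 3 Cre plus arrays, at -1.13, -1.06 and -1.23, whereas Cidec is at 0.20, -2.90 and 0.53.

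Genes that make triglyceride and steryl ester were also mostly lower in value. Of 19 listed, 13 were measured, with 9 lower and 4 higher, a median log2 difference of -0.22, 0 past limma's adjusted threshold and 6 lower at an unadjusted p under 0.05. By that rule 8.21% of all genes were lower. Gpam, which adds the first acyl chain to glycerol phosphate, differed by -0.40 ± 0.09, Dgat2, which adds the last chain of triglyceride, by -0.50 ± 0.12, and the acyltransferase Agpat3 by -0.31 ± 0.09. Their limma adjusted p-values were 0.187, 0.187 and 0.216. In each the groups did not overlap, as was so on the lower side for 11.9% of all genes.

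Of 19 genes of fatty acid uptake, binding and storage control, 16 were measured, with 14 lower and 2 higher in value and a median of -0.21. In limma 0 passed the adjusted threshold, and 4 lower and 1 higher reached p under 0.05 before adjustment. Over all genes, 8.21% were lower and 6.62% higher by that rule. The fatty acid binding proteins Fabp2 and Fabp5 went opposite ways, at -0.75 ± 0.13 and 0.82 ± 0.17, with limma adjusted p-values of 0.120 and 0.151. Insig2, which keeps the lipid regulator SREBP in the endoplasmic reticulum, differed by -0.50 ± 0.15 with an adjusted p = 0.235 by limma. Across all 6 lists, 84 genes were measured, 66 of them lower and 18 higher in value. By limma's adjusted p 0 passed, and 28.6% were lower with p under 0.05 before adjustment, beside 8.21% of all genes. Those 24 lower genes became 15 without Cre minus A or without Cre minus C, and the 3 higher ones became 6 when Cre plus B was left out and 1 when Cre plus C, Cre minus A, Cre minus B or Cre minus C was. The lists were chosen with earlier results of these data known, so nothing is read from their shares against that of all genes.

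**Figure D4:**
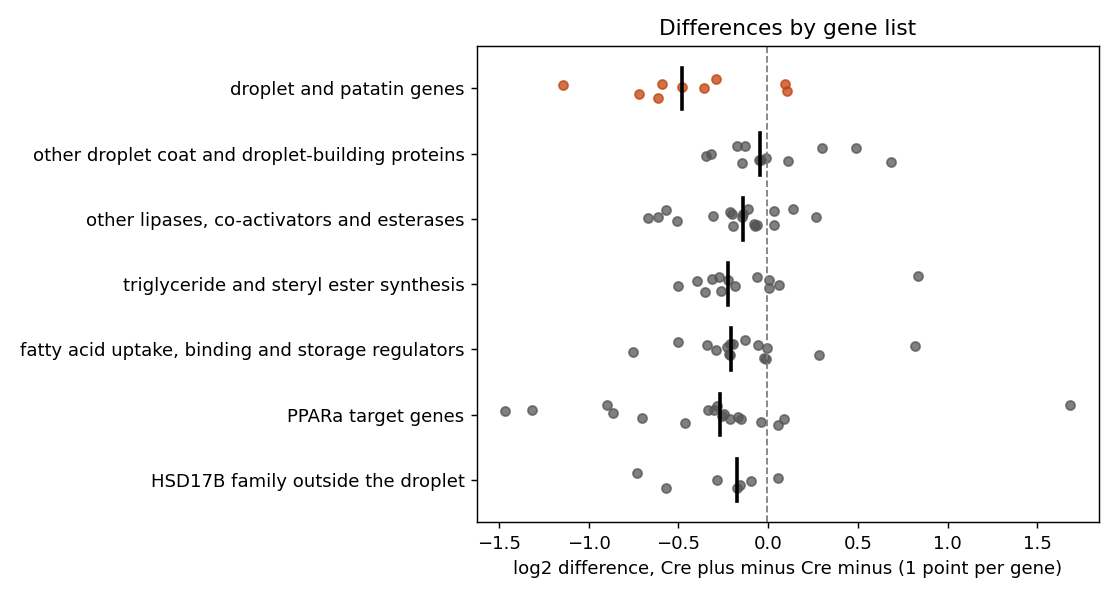
Log2 difference, Cre plus minus Cre minus (x axis), with 1 point per measured gene, for the droplet and patatin genes (orange, top) and 6 lists of other lipid genes (grey). Black bars are medians, and the dashed line is the median of all 8554 genes, -0.01. The medians run from -0.48 for the droplet and patatin genes to -0.05 for the other droplet proteins. The genes and lists were chosen with earlier results of these data known, so nothing is read from this order.

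By pattern over the 6 arrays, the genes most like each of the 3 members with the widest range were found by Pearson's correlation (n = 6 arrays, a description with no test, since groups and array scale are shared). For Cidec these were Mif, Kcmf1 and Hmox2, at 0.983, 0.981 and 0.977. For G0s2 they were Oit3, Hexim1 and Dnaja1, at 0.995, 0.991 and 0.990, and for Pnpla2 they were Myl12a, Cdk12 and Gpn2, at 0.993, 0.991 and 0.991.

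Whole liver RNA mixes cell types, and fewer cells of a type cannot be told apart from less RNA per cell. Adipocyte markers bear on Pnpla2, Cidec and G0s2, which fat cells express strongly. Of 7 adipocyte markers on the array 3 passed the filter (Fabp4, Plin4 and Lipe, which other cells also express), 1 higher and 2 lower in value. Their summed level ran from 10.18 to 11.42 in Cre plus and from 10.67 to 11.36 in Cre minus on the log2 scale. A summed level adds the signals of different genes, so it mainly follows the brightest marker, here Fabp4. Lep and Retn stayed at or below 2.57 and 2.18. Adipoq, the adipocyte hormone adiponectin, was at 4.08 in Cre plus C and between 2.55 and 2.58 in the other 5 arrays, and Cidea at 4.13 in Cre plus C and between 2.04 and 2.06 elsewhere. The 3 measured markers had a median shift from the Cre minus mean of 0.20, -0.58 and 0.49 for Cre plus A, B and C, and a median log2 difference of -0.02, or 0.34 without Cre plus B. Cre plus B had the lowest Pnpla2 and Cidec. It was also the lowest of all 6 arrays for Fabp4, at 10.03, and for Plin4, at 6.29. Plin4 is the gene named above after its values were seen. Lipe was at 5.15, 5.16 and 5.09 over Cre plus A to C, so it was not lowest in Cre plus B. The summed marker level of Cre plus B, 10.18, was the lowest. Cre plus C had the highest Pnpla2 and Cidec. G0s2 went the other way within Cre plus, highest in B at 8.71 and lowest in C at 8.54. Fabp4 was at 11.27 in Cre plus C and also in Cre minus A, where Pnpla2 was at 8.17 and Cidec at 7.04. The part of fat cells in these high and low values was not tested.

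Hepatocyte markers were lower in value in 6 of 8 and higher in 2, with a median of -0.05 and summed levels of 17.27 to 17.43 in Cre plus and 17.37 to 17.42 in Cre minus. Kupffer cell and macrophage markers were lower in 12 of 12, with a median of -0.39 and summed levels of 11.67 to 11.97 in Cre plus and 12.14 to 12.27 in Cre minus. Sinusoidal endothelial markers were lower in 8 of 9, at 11.16 to 11.45 in Cre plus and 11.47 to 11.67 in Cre minus. Stellate cell and fibroblast markers were higher in 6 and lower in 5 of 11, at 11.33 to 11.67 in Cre plus and 11.30 to 11.39 in Cre minus. No marker passed limma's adjusted threshold, while 2 stellate markers were higher and 8 macrophage, 3 endothelial and 1 hepatocyte markers lower with p under 0.05 before adjustment. Over all genes, 8.21% were lower and 6.62% higher by that rule, and 53.5% were lower in value. The part of these cells in the lower values of G0s2, Hsd17b13, Hsd17b11, Pnpla7 and Cideb was not tested.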

How the data were processed

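Total RNA from whole liver (2 ug per array) was hybridised to Affymetrix Mouse Genome arrays, per the labels' protocols. The log2 values (scale judged from their range) were made by the authors with GCRMA before they were deposited, per the submitters' processing notes; its version is not stated in these sources. GCRMA corrects background from probe sequence, scales arrays to one distribution and summarises probe sets. Near the bottom of the scale probe sets lay flat, as for Pnpla3, or jumped in a single array, as for Adipoq and Cidea. Differences there are uncertain. Arrays have no read depth, and their number limits the precision.

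Of 45101 probe sets, the 64 controls and those with several symbols (932) or none (9160) were left out. Symbols came from the platform annotation, updated through Entrez ID. Probe sets over 4 in at least 3 of 6 arrays were kept, and a gene was read from its brightest, giving 8554 genes. The Cre plus and Cre minus groups were compared in limma 3.58.1 (R 4.3.3) with lmFit and eBayes, two-sided, no block, Benjamini-Hochberg adjusted over all genes, and tested on simulated data. The letters A, B and C were not used to pair the arrays, and whether they mark pairs is not known.

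The members and lists were chosen with earlier results of these data known. Named genes are the 10 members, Socs3, up to 3 genes per list by smallest p, and the 3 genes most like each of the widest-ranging members; the text marks any gene picked later on its values, and the neighbours of Hsd17b13 and Hsd17b11 by position. Alternatives were other scalings, filters, probe set choices, spread estimates, array weights, a replicate block and each array left out.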

Additional observations from a re-analysis of the deposited data

How the results depend on the processing

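With 3 arrays a group the precision is low. The median difference of the 9 genes (-0.48) stayed between -0.50 and -0.43 under the alternatives that kept all 9. It was -0.42 over 10 genes with no filter. Without the _x_at and _s_at probe sets, and with them the one for Cideb, it was -0.54 over 8 genes. With all 6 arrays 5 genes were apart and lower, or 4 without those probe sets. Leaving out each array in turn gave medians of -0.50 to -0.43 and 5 to 6 such genes, counts for which no share over all genes was computed. Signs turned for Pnpla2 without Cre plus C (-0.26), Plin2 without Cre plus A (-0.0042) and Cidec without Cre plus B (0.37).

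Over all genes 2 passed limma's adjusted threshold. The count was 0 with no filter, 56 with the filter at 6 and 0 to 13 with an array left out, 13 without Cre plus B and 0 without Cre minus A, B or C. Of the lipid genes outside the group 0 passed, and 0 to 1 with an array left out. Socs3 passed at -2.01 (adjusted p = 0.0321) with the filter at 6, where fewer genes are tested, and differed by -2.14 to -1.75 with an array left out, passing without Cre plus B (adjusted p = 0.0166). For the changes with filter and arrays the cause was not tested beyond the number of genes or arrays.

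With the letter as a replicate block 0 genes passed. Arrays of the same letter did not deviate together (correlations of -0.15, -0.10 and 0.02 for A, B and C). Cre plus and Cre minus arrays of unlike letters had correlations of -0.09 to 0.19, a similar scatter. With so few arrays in a group, these correlations cannot tell whether the letters mark pairs.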

Other observations

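Regulators of fat storage, chosen after their values were seen, add values not given above. Ppara, the fatty acid receptor itself, averaged 9.96 ± 0.11 in Cre plus and 10.17 ± 0.13 in Cre minus arrays (SD, n = 3 each), with limma's adjusted p = 0.356. Nr1h3, the liver X receptor alpha, averaged 7.46 ± 0.15 in Cre plus and 7.68 ± 0.05 in Cre minus arrays (SD, n = 3 each), with limma's adjusted p = 0.333. Lpin1, a phosphatidate phosphatase that is induced by fasting, had 8.82, 6.28 and 7.73 over Cre plus A to C, against 6.15, 7.29 and 6.90 over Cre minus A to C, with Cre plus B again the lowest of its group and a log2 difference of 0.84 ± 0.67 (limma's adjusted p = 0.600), which was 1.502 without Cre plus B. The fatty acid transporter Cd36 averaged 10.54 ± 0.18 in Cre plus and 10.55 ± 0.18 in Cre minus arrays (SD, n = 3 each), a log2 difference of -0.0090, or 0.09 without Cre plus B.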
